A study of Mus musculus with 25 samples.

Results

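Gene expression of Ly6Chigh macrophages sorted from injured mouse muscle was compared between day 4 and day 2 after the injury. A gene entered where its normalised read count was 50 or more in the group with the higher level, which kept 11618 of the 38087 genes in the table. For each gene 10 was added to the normalised count of both days and the log2 ratio of day 4 over day 2 was taken. In what follows a gene is called higher or lower at day 4 where this ratio reached 2-fold, and every fold value is on this scale, which compresses the differences of genes with low levels.

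Ly6Chigh macrophages derive from blood monocytes that enter muscle within hours of damage through the chemokine receptor CCR2. They clear dead fibres and release inflammatory and matrix proteins, and over the following days they turn into Ly6Clow cells, which support fibre growth. Interferon-gamma, low oxygen and lipids taken up from dead cells are known to act on the genes of such cells, through STAT and IRF factors, HIF1 and the nuclear receptors LXR and PPAR respectively.

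The tibialis anterior of adult male C57BL/6J mice, 2 to 4 months old, had been injected with 50 µl of 12 µM cardiotoxin (CTX), a snake venom toxin that kills fibres and spares the stem cells. CD45+ leukocytes were enriched with magnetic beads and Ly6Chigh F4/80low cells were taken by flow cytometry at day 2 (3 samples) and day 4 (2 samples). Ly6Clow F4/80high macrophages (3 samples at day 2, 2 at day 4), Ly6Ghigh neutrophils (3 samples at day 1) and cultured bone marrow-derived macrophages (BMDM, 3 untreated samples) are used for comparison. All muscle cells came from CTX-injured mice of the same strain, and no uninjured muscle group is in the table. A gate on Ly6C and F4/80 within CD45+ cells can also hold other leukocytes with these antigens.

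Each muscle column is the authors' mean over the samples of a group. The differences below therefore carry no error, no test and no replicate check, and whether they exceed the spread between samples was not tested. Summed normalised counts were 12.5 M at day 2 and 11.9 M at day 4, and the reads behind them are unknown. In a sorted population a lower level may come from fewer cells of a type or from less RNA per cell, and these cannot be told apart.

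The cells carried the markers of their gate at both days. Ly6c2, one of the 2 genes of the Ly6C antigen, went from 3717 normalised counts at day 2 to 11758 at day 4, and Ly6c1 from 985 to 3258. The 2 genes are close copies, so reads may have been split between them, and both are part of the gate, so their difference is no result. The monocyte markers Ccr2 (10724 and 12849.8) and Plac8 (5865 and 7982) differed by less than 2-fold between the days. So did the macrophage markers Emr1, which encodes F4/80 (8642 and 14270), Csf1r (20346 and 28865), Cd14 (29727 and 20955) and Cd68 (17733 and 12201). Ptprc, the gene of the leukocyte antigen CD45, was 2.06-fold higher at day 4 (6762 and 13922). Ly6g, the neutrophil sort antigen, was listed at 0 at both days.

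At day 4, 1123 genes (9.67%) were higher and 435 (3.74%) lower than at day 2, and the median log2 ratio over all 11618 genes was -0.01. The 5th and 95th percentiles of the ratio were -0.88 and 1.57. The upward side reached further: 396 genes were at least 4-fold higher and 46 at least 4-fold lower, and 47 were at least 16-fold higher against 2 lower. Much of this lies among genes that were low at day 2. A gene at 20 or less on one day and 50 or more on the other always passes the 2-fold limit, and 370 of the higher and 20 of the lower genes are of this kind. Among the other 11228 genes 753 were higher and 415 lower. With a level limit of 200 in place of 50, 515 genes were higher and 339 lower, so that 60.3% of the called genes were higher against 72.1% at 50. Next to the level limit of 50, Rpl29-ps5 (50.1 and 42.4) and Gm19840 (41.3 and 50.1) were just inside, and Gm9095 (49.97 and 33.2) and Nup37 (49.9 and 49.8) just outside.

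**Figure D1:**
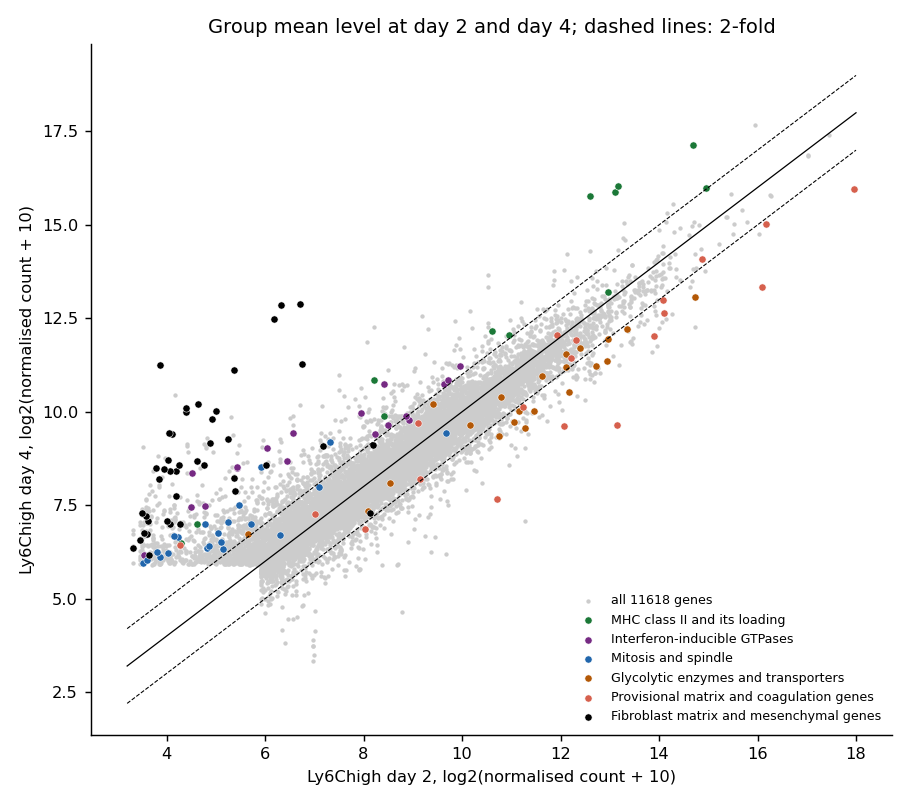
Group mean levels of 11618 genes in Ly6Chigh cells at day 2 (x axis) and day 4 (y axis), as log2 of the normalised count plus 10, with 6 gene lists in colour, the line of equality and dashed 2-fold lines. Fibroblast genes (black) lie at the upper left, MHC class II and interferon GTPase genes lie above the upper 2-fold line or close to it, and glycolytic and provisional matrix genes lie mostly below the diagonal. The empty corner at the lower left comes from the level limit of 50.

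Genes were described through 57 lists, 45 for pathways and 12 for cell types other than monocytes and macrophages. The lists were drawn up with earlier results of these data known, so their direction is no independent evidence. Every list count below stands beside 9.67% higher and 3.74% lower over all genes. A count near these shares is no result about its list. The largest ratios of all were those of genes known from connective tissue. The fibroblast list holds 46 genes, of which 42 passed the level limit, 40 higher and 0 lower, with a median log2 ratio of 4.13. For 28 of these the passing level at day 4 and a level of 20 or less at day 2 made the call certain. The list summed to 1434 normalised counts at day 2 (0.0114% of the total) and 42323 at day 4 (0.357%), against 6124 in Ly6Clow cells at day 4. Fap, Mfap2 and Cthrc1 were listed at 0 at day 2 and no gene of the list was at 0 at day 4.

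Lymphoid and dendritic cell genes showed the same direction. Of 23 T cell genes 12 passed the level limit and 9 were higher, with sums of 2052 and 2766. Cd3e, a defining gene of T cells, was at 1.06 and 29.7, below the limit on both days. The 17 NK and cytotoxic cell genes summed to 197 and 1774, with 9 of 10 higher, and Ncr1 was at 1.00 and 20.96. Plasmacytoid dendritic cell genes summed to 1379 and 4678 (12 of 14 higher), and classical dendritic cell genes to 5393 and 7902 (11 of 14 higher). Wdfy4 (3645 and 2813) and Naaa (1382 and 2303), both under 2-fold, made up most of the classical sums. Tcf4 (890 and 1253), also under 2-fold, made up most of the plasmacytoid sum at day 2. These sums therefore say little about the other members. Of 13 B cell genes 3 passed the limit, all 3 higher, while Pax5, the factor that sets B cell identity, was listed at 0 at both days. Endothelial genes summed to 935 and 2256 (7 of 9 higher), and skeletal muscle genes to 428 and 1615 (6 of 8 higher), with Myog, a regulator of myoblast fusion, listed at 0 at day 2 and at 41.5 at day 4. Neutrophil genes went the other way, with 6 of 9 lower, 1 higher, and sums of 6572 and 4436 against 453417 in neutrophils. Most of the day 2 sum came from Cd177 (2018, against 475 in neutrophils), Trem1 (1474) and Csf3r (1373). Ngp and Camp were listed at 0 on both days, and S100a8 was at 89.0 and 24.5 against 101337 in neutrophils. The sum therefore says little about the amount of neutrophils. Among eosinophil and mast cell genes Kit alone passed the limit (6.97 to 57.3), and the erythroid and platelet list had Ppbp and Pf4 lower, with sums of 3839 and 947. The part of such cells in the results below was not tested. Without the genes of these 12 lists 1017 genes were higher and 426 lower.

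**Figure D2:**
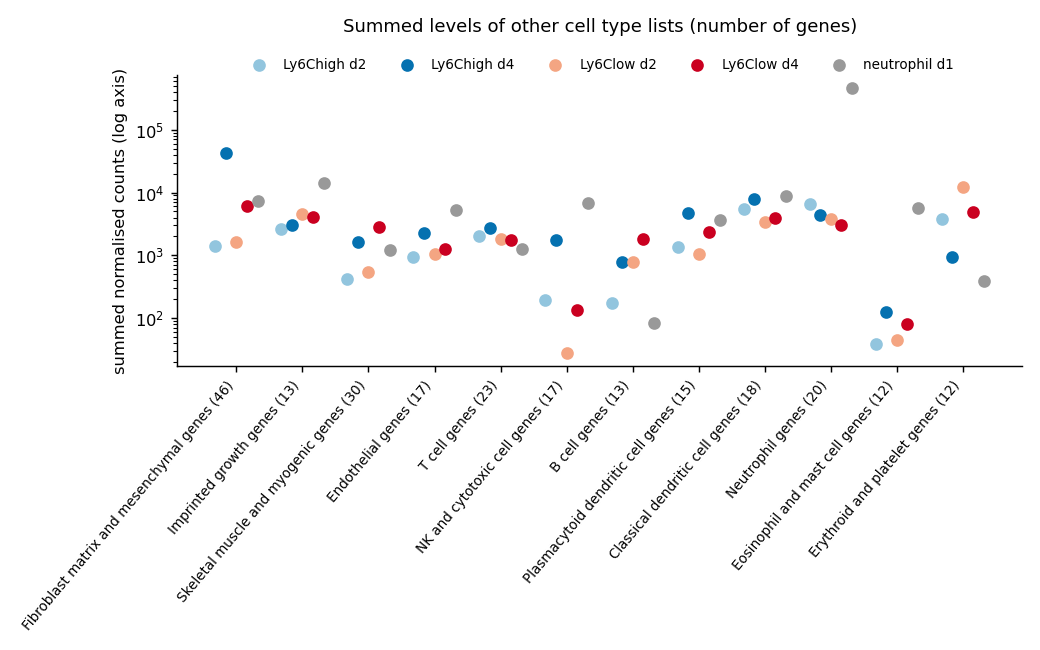
Summed normalised counts (log axis) of 12 lists of genes of other cell types in the 5 muscle groups, with the number of genes in parentheses and 1 point for each group mean. The fibroblast sum is 42323 in Ly6Chigh cells at day 4 and 1434 at day 2, while the neutrophil sum is 4436 there against 453417 in neutrophils.

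Promoters of some of the genes that moved together carry short words known from their regulation, and the stretches around these words are shown to make the gene groups concrete. The sequences are RefSeq's, on GRCm38.p6, from up to 250 bases before a start to the start itself, 5′ to 3′ on the gene's strand, with every occurrence of the word on either strand in capitals. The interferon response element was searched as 2 copies of GAAA parted by 2 bases, which 3.99% of the 27025 genes with a promoter in the table hold. Of 18 interferon-inducible GTPase genes past the level limit only 10 had a promoter in the table, too few for a share, and 9 of the 10 held the element.
Gbp2, chr3:142620564-142620653, plus strand: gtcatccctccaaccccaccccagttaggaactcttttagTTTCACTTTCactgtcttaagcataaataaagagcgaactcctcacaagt
Gbp3, chr3:142559965-142560043, plus strand: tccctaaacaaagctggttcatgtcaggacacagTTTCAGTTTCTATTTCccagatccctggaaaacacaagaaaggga
Tgtp1, chr11:48992274-48992363, minus strand: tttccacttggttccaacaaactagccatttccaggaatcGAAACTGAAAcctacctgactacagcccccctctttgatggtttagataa
Irgm1, chr11:48871421-48871484, minus strand: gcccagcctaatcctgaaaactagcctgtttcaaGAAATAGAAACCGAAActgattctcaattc
These 4 genes were 5.02-fold, 4.09-fold, 7.97-fold and 2.20-fold higher at day 4.

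The core of the hypoxia response element, ACGTG, was held by 21.8% of all genes with a promoter, and by 13 of 20 glycolytic genes (65.0%). For each of the words shown, all genes with a promoter include those under the level limit, while the list genes passed it. The shares therefore do not compare like sets of genes. The glycolytic genes had 1.60 promoters each in the table against 1.22 for all genes, which raises the chance of a match. The word was also held by 14 of 26 lysosome genes with a promoter (53.8%), at 1.38 promoters each, and the median log2 ratio of that list was 0.05. Of 19 HIF targets outside glycolysis, among them Egln3, 15 had a promoter, too few for a share, and 14 of these held the word.
Pgk1, chrX:106186929-106187013, plus strand: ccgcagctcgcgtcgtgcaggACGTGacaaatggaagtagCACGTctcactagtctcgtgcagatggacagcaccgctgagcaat
Slc2a1, chr4:119108669-119108744, plus strand: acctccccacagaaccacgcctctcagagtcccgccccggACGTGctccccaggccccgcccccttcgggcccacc
Egln3, chr12:54204059-54204124, minus strand: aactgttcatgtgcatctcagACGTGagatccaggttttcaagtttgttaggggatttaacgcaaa
These 3 genes were 3.25-fold, 3.13-fold and 6.76-fold lower at day 4.

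The cell cycle homology region, searched as TTTGAA, was held by 20.2% of all genes with a promoter and by 13 of 17 mitosis genes (76.5%). It was also held by 5 of the 10 interferon-inducible GTPase genes with a promoter. The CCAAT box, another word that was searched, was held by 14 of the 17 mitosis genes. Its share over all genes and the number of promoters per mitosis gene are not given here.
Top2a, chr11:99024190-99024252, minus strand: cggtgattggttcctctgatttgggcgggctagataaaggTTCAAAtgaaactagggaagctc
Cdk1, chr10:69352913-69352967, minus strand: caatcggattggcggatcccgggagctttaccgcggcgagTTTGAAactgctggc
These 2 genes were 6.06-fold and 3.26-fold higher at day 4. TTTGAA can overlap the interferon element in the letters GAA, none of the 3 words shown in capitals contains another, and a match is only a description of the letters.

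Genes for the display of antigen were higher at day 4. MHC class II molecules, which present peptides to CD4 T cells, led this group: of 12 class II genes past the limit 11 were higher and 0 lower, with a median log2 ratio of 2.30. H2-Eb1, a beta chain, went from 6156 at day 2 to 55585 at day 4 (9.02-fold), and H2-Aa, an alpha chain, from 9204 to 67775 (7.36-fold). Cd74, the invariant chain that guides class II molecules to the endosome, went from 26286 to 144409 (5.49-fold). Their activator Ciita was at 287 and 1826 (6.18-fold). The peptide editors H2-DMb1 (2.92-fold) and H2-DMa (2.15-fold) and the protease gene Ctss (2.03-fold), which trims the invariant chain, had smaller ratios, and Ifi30, a thiol reductase of the endosome, stayed under 2-fold (1.17-fold). H2-Ob (14.5 and 119) and H2-Oa (9.67 and 80.3), which restrain the editor, were low at day 2. The 8 class II genes past the limit on chromosome 17, between 34092340 and 34341412 on GRCm38, were all higher. Beside them the classical dendritic cell genes Flt3 (39.9 and 394), Zbtb46 (5.15 and 55.7) and Ccr7 (35.3 and 244) were higher too, and their part in the class II levels was not tested.

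MHC class I genes, which display peptides from inside the cell, moved less. Of 23 genes 11 were higher and 1 lower (median 0.88). The non-classical genes H2-Q6 (445 to 3426, 7.55-fold) and H2-Q7 (622 to 4745, 7.52-fold) had the largest ratios, but they are near-identical copies, so reads may have been split between them and each value is uncertain. The classical heavy chain H2-K1 was 3.40-fold and B2m, the shared light chain, 2.42-fold higher. Tap1, a subunit of the peptide transporter, was 2.13-fold higher, and the immunoproteasome genes Psmb9 (1.84-fold) and Psmb8 (1.31-fold) stayed under 2-fold. Calr, a chaperone of the peptide-loading complex, was 2.46-fold lower. Among co-stimulatory genes 3 of 11 were higher, namely Cd40 (321 to 1020.2), Cd83 (3696 to 10748) and Icosl (375 to 919), and 0 were lower.

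Interferon-inducible GTPases, which attack vacuoles that hold microbes, had the highest share of higher genes of the 45 pathway lists: 17 of 18 were higher (median 2.28), 4 of them certain from their levels. Iigp1 went from 12.8 to 318 (14.4-fold), Gbp4 from 33.1 to 356 (8.50-fold) and Tgtp1 from 55.4 to 512 (7.97-fold). Irgm1 (827 to 1831), Ifi47 (784 to 1719) and Gbp9 (455 to 942) were already expressed at day 2 and were just over 2-fold higher, and Igtp stayed under the limit (1.82-fold). The Gbp genes sit in 2 clusters, on chromosome 3 (142530342 to 142638008), where 4 of 4 were higher, and on chromosome 5 (105014150 to 105346472), where all 4 past the limit were. Paralogs in both clusters and the pair Tgtp1 and Tgtp2 are similar in sequence, so their single values are uncertain.

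Genes known best as targets of type I interferon differed less. All 36 had ratios above 0, but 8 reached 2-fold and the median was 0.80. Ifi44 (15.7 to 355, 14.2-fold), Ifit2 (596 to 2998, 4.96-fold), which blocks translation of viral RNA, and Ifit3 (684 to 2579, 3.73-fold) led the list. The RNA sensor Ifih1 (2.31-fold) and the tether Bst2 (2.24-fold) were also higher. In Ly6Clow cells 34 of 36 were 2-fold higher between the same days (median 1.63). Among interferons, receptors and their factors 6 of 25 were higher, among them Irf7 (3719.98 to 14015), the amplifier of the interferon response, Irf4 (110 to 386), Irf1 (760.3 to 2302), Stat2 (1346 to 3179) and Irf8 (2120.4 to 4526). Ifng, the gene of interferon-gamma and a product of T and NK cells, was at 1.06 at day 2 and 29.1 at day 4, under the level limit on both days.

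Chemokine genes split into 2 sets. Among CC chemokines, 4 of 11 were higher and 5 lower. Ccl5, which draws T cells and monocytes, went from 18.1 to 618 (22.3-fold) and Ccl8, a ligand of CCR2 and CCR8, from 69.4 to 418 (5.39-fold). Lower were Ccl2 (5731 to 1856, 3.08-fold) and Ccl7 (3967 to 1415, 2.79-fold), the main ligands of CCR2, and Ccl6 (27076 to 4963, 5.45-fold), Ccl9 (17116 to 5422) and Ccl24 (172 to 64.6). Among the CXC and other ligands 6 of 11 were higher and 4 lower. The CXCR3 ligands Cxcl9 (11.8 to 472, 22.2-fold) and Cxcl10 (382 to 1349.97, 3.47-fold) and the membrane-bound Cxcl16 (1142 to 6687, 5.81-fold) were higher. The neutrophil attractants Cxcl2 (5135 to 1369, 3.73-fold), Cxcl3 (513 to 107, 4.48-fold) and Ppbp (431 to 15.1, 17.6-fold) were lower, as was Pf4 (3353 to 854, 3.89-fold). Ppbp and Pf4 are also platelet genes. The defining platelet genes were at or near 0 on both days: Gp9 was at 1.25 at day 2 and listed at 0 at day 4, Itga2b was at 1.06 and 6.04, and Gp1bb at 1.38 and 4.06. Whether platelets were a source of Ppbp and Pf4 was not tested. Cxcl12 (20.5 to 189) and Cxcl14 (20.2 to 94.2) are known from stromal cells and Xcl1 (1.00 to 61.1) from NK and T cells, whose markers were higher as given above.

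Of 13 chemoattractant receptor genes 4 were higher and 2 lower. Cx3cr1, the fractalkine receptor of patrolling monocytes and macrophages, went from 1399 to 4172 (2.97-fold). C5ar1, the receptor of the complement fragment C5a, went from 8525 to 2898 (2.93-fold lower) and Ccr1 from 5053 to 1865 (2.70-fold lower). Ccr9 (7.18 to 257), Cxcr3 (10.3 to 124) and Ccr7 were higher, and these 3 are known from plasmacytoid dendritic cells, T and NK cells and migrating dendritic cells.

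Among inflammatory cytokines and their antagonists 4 of 16 genes were higher and 1 lower, with a median log2 ratio of 0.33. Il1b was at 10235 and 11472 (1.12-fold) and Tnf at 1400.3 and 969.6 (1.44-fold lower), both under the 2-fold limit. Il18bp, which neutralises interleukin-18, went from 94.6 to 1147 (11.1-fold higher), Ebi3, a subunit of interleukin-27, from 134 to 379, and Tnfsf10, the death ligand TRAIL, from 43.0 to 139. Il6 was at 8.14 and 53.8. Osm, oncostatin M, was 2.10-fold lower (6432 to 3059.6).

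Growth factor genes had 6 of 17 higher and 3 lower (median 0.50). Igf1, a growth factor for muscle fibres, went from 177 to 859.8 (4.66-fold), and Pdgfb, which acts on pericytes and fibroblasts, from 51.9 to 603 (9.90-fold). Pdgfa was 2.30-fold higher (105 to 254). Vegfa, the angiogenic factor induced by low oxygen, was 2.33-fold lower (5900.5 to 2525), Areg, a ligand of the EGF receptor, 4.27-fold (229 to 46.0) and Inhba, a subunit of activin, 2.18-fold (78.1 to 30.4). Ctgf (2.27 to 74.97) is widely made by fibroblasts, whose genes were higher beside it.

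The list of arginine use and alternative activation had 4 of 15 higher and 6 lower. Arg1, arginase, had the largest ratio downward of all genes, from 2471 to 125 (18.4-fold lower), and Odc1, which makes polyamines from the product of arginase, was 2.35-fold lower (3258 to 1381). The chitinase-like genes Chi3l3 (6526 to 1762) and Chi3l4 (787 to 226) and the mannose receptor gene Mrc1 (12137 to 5023) were lower, while the resistin-like gene Retnla (4.83 to 75.3) and the lectins Mgl2 (61.7 to 194) and Clec10a (425 to 941) were higher. Chi3l3 and Chi3l4 are close copies and their values are uncertain. Nos2, the inducible nitric oxide synthase that competes with Arg1 for arginine, was at 11.6 and 12.5, under the level limit.

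Provisional matrix and coagulation genes were mostly lower at day 4, 11 of 19 against 1 higher (median -1.11). These genes make the first scaffold of a wound. Vcan, versican, went from 9089.9 to 787 (11.4-fold lower), Fn1, fibronectin, from 69485 to 10371 (6.69-fold lower) and Thbs1, thrombospondin-1, from 253762 to 63718 (3.98-fold lower). The clotting factor genes F10 (4309 to 775, 5.50-fold) and F13a1 (15348 to 4196, 3.65-fold) and Pdpn, podoplanin (1659.7 to 192, 8.25-fold), were lower in the same way. Has1, a hyaluronan synthase, was the single higher gene (9.45 to 75.9). The fibroblast list and this one thus had opposite directions, and fibroblasts also make fibronectin and versican.

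Of 22 genes of matrix turnover 5 were higher and 8 lower. Timp1, an inhibitor of metalloproteases, was 5.96-fold lower (598 to 91.98), Adam8 4.80-fold (14829.7 to 3082), Mmp8, a collagenase, 4.26-fold (642 to 143) and Mmp19 3.01-fold (6940.3 to 2302). Mmp12, the macrophage elastase, was 2.33-fold higher (150.4 to 364) and Mmp13 2.11-fold (60.8 to 139).

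Genes of glucose use and of the response to low oxygen were lower at day 4. Of 21 glycolytic genes 11 were lower and 1 higher (median -1.03), and 19 had ratios below 0. Slc2a1, the glucose transporter GLUT1, went from 4623 to 1472 (3.13-fold lower) and Slc16a3, which exports lactate, from 7886 to 2625 (3.00-fold). Enzymes of the later steps of glycolysis were among them, with Pgk1 (2462 to 752), Pkm (26993 to 8530.2), Eno1 (6778 to 2397) and Pgam1 (2821 to 1039). Gapdh and Pgk1 have near-identical copies elsewhere in the genome, so their levels are uncertain. Pfkm, the muscle form of phosphofructokinase, was the one higher gene (40.1 to 95.6). The summed glycolytic list was lower at day 4 in both subsets, at 97742 and 42485 in Ly6Chigh and 81904 and 41762 in Ly6Clow cells.

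HIF targets outside glycolysis had 10 of 19 lower and 0 higher (median -1.05). Egln3, the oxygen sensor that HIF itself induces, went from 405 to 51.4 (6.76-fold), Ankrd37 from 229 to 44.5 (4.38-fold) and Hilpda, which holds lipid in droplets, from 2582 to 673 (3.79-fold). Hif1a was 2.36-fold lower (4148 to 1749). In Ly6Clow cells 0 of 18 genes of this list were 2-fold lower (median -0.24).

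Cholesterol synthesis and uptake genes had 6 of 23 lower and 0 higher (median -0.64). Among the lower genes were the synthesis genes Sqle (366 to 95.6), Fdps (255 to 90.8) and Sc4mol (509.9 to 237) and Srebf2, the factor that drives them (2755 to 1235). Genes of the stress response of the endoplasmic reticulum were lower as well, 7 of 22 with 0 higher, led by the folding enzyme genes Pdia4 (3978 to 1228) and Pdia6 (9583 to 3503) and the chaperone gene Hyou1 (6229 to 2057). Hmox1, the heme oxygenase induced by NRF2, was 2.32-fold lower (10646 to 4583), and the NRF2 list had 1 higher and 2 lower of 20.

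Lipid export genes were higher in part. Of 30 genes of LXR, PPAR and lipid handling 8 were higher and 0 lower, and 15 had ratios above 0. Apoe, the carrier of exported cholesterol, went from 63167 to 207496 (3.28-fold), Pltp, which transfers phospholipids between lipoproteins, from 1470.3 to 13027 (8.81-fold) and Abcg1, a cholesterol exporter, from 1473 to 4967 (3.36-fold). Mylip, a ubiquitin ligase induced by LXR, was 2.89-fold higher (662 to 1933), and the desaturase genes Scd1 (12.3 to 54.4), Scd2 (638 to 1495) and Fads1 (239 to 619) were higher.

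Complement genes had 10 of 17 higher and 3 lower (median 1.37). The 3 chains of C1q, which bind dying cells, were higher: C1qa (4476 to 19264, 4.30-fold), C1qc (4294 to 14149.6, 3.29-fold) and C1qb (9849.7 to 25484, 2.59-fold). Cfb, factor B of the alternative pathway, was 10.4-fold higher (572 to 6047) and C4b 5.76-fold (217 to 1300.5). Cfp, properdin, was 3.78-fold lower (9269.96 to 2448). Serping1 (4.33 to 282) and C1s (2.06 to 125) are also made by fibroblasts.

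Among receptors and bridging proteins for apoptotic cells 4 of 20 were higher and 1 lower. Axl went from 1468 to 10409.7 (7.05-fold) and Mertk, its relative, from 867 to 1808 (2.07-fold), while the scavenger receptor gene Msr1 was 3.13-fold lower (6599.99 to 2099). The macrophage identity list had 8 of 23 higher and 2 lower (median 0.51). Cd81 (56.5 to 392), Hpgds (376 to 1142), Cd5l (90.3 to 282), Sepp1 (10107 to 24779) and Ms4a7 (2932 to 6937) were higher. Cd163, the hemoglobin scavenger receptor, was 2.52-fold lower (256 to 95.6). Of 21 iron and heme genes 5 were higher and 2 lower, with Slc40a1, the iron exporter ferroportin, at 27.9 and 111 and its activator Spic at 66.0 and 174.

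Monocyte genes did not move as one. Of 29 past the limit 7 were higher and 9 lower (median 0.19). Lower were the calcium-binding genes S100a4 (15828 to 3433, 4.60-fold) and S100a6 (11028 to 3784), the lectins Clec4d (4174 to 1049.7) and Clec4e (7126 to 2109), which sense mycobacterial lipid and dead cells, and Dmkn (648 to 65.7, 8.70-fold). Higher, beside the gate's Ly6c1 and Ly6c2, were Spn, which encodes CD43 (174 to 566), Klf2 (557 to 1757), Cd300e (24.9 to 87.0) and the integrin gene Itga4 (1696 to 3674).

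Of 44 lineage transcription factors 9 were higher and 1 lower. Mycl1 (5.20 to 75.2), Zbtb46 (5.15 to 55.7) and Batf3 (47.4 to 177) are known from classical dendritic cells and Irf8 from both dendritic cells and monocytes. Cebpb, a factor of myeloid differentiation, was 2.07-fold lower (12704 to 6132). Immediate early genes had 0 higher and 2 lower of 26, the latter being Fosl1 (185 to 44.1) and Ier3 (10806 to 3732). NF-kB subunits and targets had 4 of 27 higher, among them Vcam1 (61.5 to 375), and 0 lower, beside 9.67% and 3.74% over all genes.

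Receptor genes for microbes, dead cells and antibodies held both higher and lower members, beside 9.67% higher and 3.74% lower over all genes. Toll-like receptors and adaptors had 5 of 25 higher and 1 lower. Tlr12, a receptor of parasite profilin, went from 4.35 to 252 (18.3-fold), Tlr3, which binds double-stranded RNA, from 33.9 to 221, and Tlr9, which binds DNA, from 1437 to 3058. Tlr5, the flagellin receptor, was 2.63-fold lower (645 to 239). C-type lectins had 9 of 21 higher and 3 lower, led by Cd209a (33.3 to 467), Klrk1 (51.0 to 521) and Clec9a (2.57 to 98.6), which are genes of dendritic and NK cells. Clec12a was 3.62-fold higher (1469 to 5339). Of 8 Fc receptor genes 3 were higher, Fcgrt (364 to 1432), Fcgr4 (1031 to 2826) and Fcgr2b (3389 to 6944), and 0 lower. Integrin genes had 5 of 15 higher and 2 lower. Itgax, which encodes CD11c, went from 965 to 4042 (4.16-fold), and Itgam, which encodes CD11b, from 26087 to 11642 (2.24-fold lower). Cybb, the catalytic subunit of the NADPH oxidase, was 3.26-fold higher (6233 to 20329.7), with 2 of 7 oxidase genes higher and 0 lower. In the inflammasome list Aim2 (195 to 517), Casp4 (259 to 642) and Nlrp1b (259 to 607) were the 3 higher genes of 16, and 0 were lower.

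Genes of cell division were higher at day 4. Of 30 mitosis genes 21 passed the limit, 18 of them higher and 0 lower (median 1.88), and for 10 the call was certain from the levels. Mki67, a marker of cycling cells, went from 150.5 to 579 (3.67-fold) and Top2a, which untangles chromosomes, from 50.7 to 358 (6.06-fold). Ccnb2, a cyclin of mitosis, was at 8.92 and 90.0. Of 27 genes of DNA replication 10 were higher and 0 lower, at a median of 0.86, with Rrm2, which makes deoxynucleotides, at 19.5 and 113 and the helicase gene Mcm7 at 65.8 and 212. In Ly6Clow cells the replication list had 0 higher and 6 lower of 33 (median -0.62). The mitosis list was higher at day 4 in both subsets, with sums of 1525 and 3653 in Ly6Chigh and 3918 and 6239 in Ly6Clow cells. Genes of T, NK and dendritic cells and of fibroblasts, which can divide in injured muscle, were higher at the same time as given above, and their part in the division genes was not tested. Cdkn1c, a cell cycle inhibitor and an imprinted gene, was the one higher gene among 12 brakes of the cycle (25.5 to 135), and 0 were lower.

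Lipid mediator genes, the theme of the study's resolvin experiments, moved in both directions. Among genes of arachidonate release and platelet-activating factor 3 of 13 were higher and 0 lower, with Lpcat2 (808 to 2535) the largest. Prostaglandin and thromboxane enzymes had 3 of 12 higher and 1 lower. Ptgs2, the inducible cyclooxygenase, went from 6176 to 2415 (2.55-fold lower), Ptgs1, the constitutive one, from 37.3 to 146 (3.302-fold higher) and Hpgd, which inactivates prostaglandins, from 68.9 to 604 (7.78-fold higher). Lipoxygenase and leukotriene genes had 4 of 10 higher and 1 lower. Alox5 was at 120.3 and 107, under 2-fold, and Alox15 at 11.5 and 38.7, under the level limit. Cyp4f18, which degrades leukotriene B4, was 2.57-fold higher (1528 to 3948), and Abcc1, which exports leukotriene C4, 2.66-fold lower (2232 to 831). Lipid mediator receptors had 4 of 18 higher and 1 lower. Gpr18, a receptor reported to bind RvD2, was at 12.1 and 139 (6.73-fold higher), a call certain from its levels. In Ly6Clow cells at day 4 Gpr18 was at 30.8. Genes of T, NK and dendritic cells were higher at the same time as given above, and their part in the Gpr18 level was not tested. Ptger4, a receptor of prostaglandin E2, was at 394 and 875, and Ltb4r1, the leukotriene B4 receptor, at 828 and 171 (4.62-fold lower).

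The respiratory chain and ribosomal protein lists held no gene past 2-fold. None of 69 respiratory chain genes (median -0.39) and none of 78 ribosomal protein genes (median -0.24) differed 2-fold, although 64 and 70 of them had ratios below 0. Among 31 genes of the lysosome, whose median was 0.05, 0 were lower and 2 higher, among them Atp6v0d2, a subunit of the proton pump (82.4 to 290). In the MS4A family 3 of 8 were higher, Ms4a7, Ms4a4d (24.1 to 66.0) and Ms4a4b (246 to 502), and 0 lower.

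**Figure D3:**
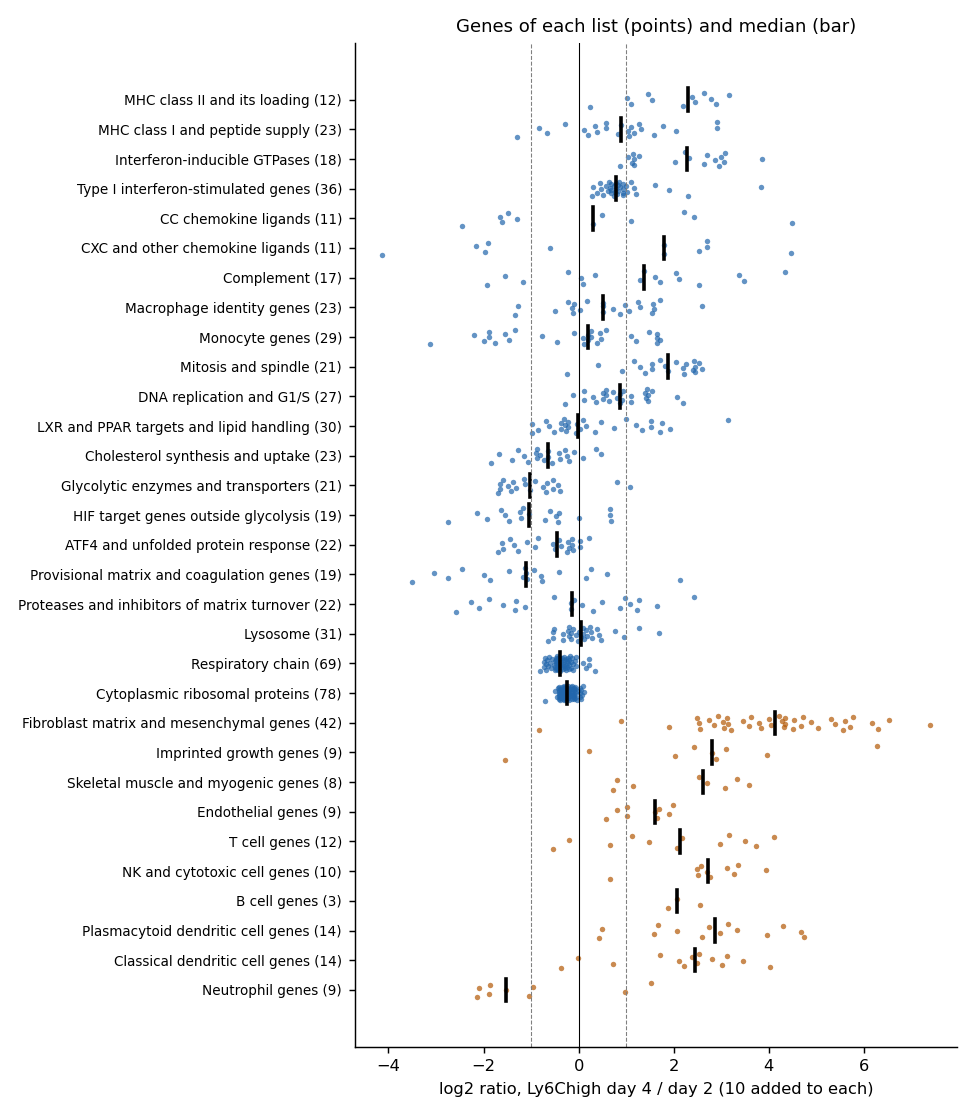
Log2 ratio of day 4 over day 2 in Ly6Chigh cells for the genes past the level limit in 21 pathway lists (blue) and 10 lists of other cell types (orange), 1 point for each gene and a black bar at the median, with the number of genes in parentheses and dashed lines at 2-fold. Class II and interferon GTPase genes lie to the right (medians 2.30 and 2.28), glycolytic, HIF and provisional matrix genes to the left (-1.03, -1.05 and -1.11), and fibroblast genes furthest to the right (4.13).

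Genes of connective tissue had the largest ratios. Postn, periostin, a matrix protein of healing tissue, went from 4.62 to 2444 (168-fold), and the fibrillar collagen genes Col1a1 from 70.3 to 7374 (91.9-fold), Col1a2 from 62.6 to 5695 and Col3a1 from 95.3 to 7565. Bgn, biglycan, a small matrix proteoglycan, was at 31.2 and 2227, and the microfibril gene Fbn1 at 21.9 and 1037. Genes that mark fibroblasts themselves, Pdgfra (2.10 to 97.1), Dcn (6.32 to 409) and Thy1 (4.41 to 284), were higher beside them, and so were 2 secreted matrix genes outside the list, Cilp (1.53 to 522) and Thbs4 (4.19 to 442). Untreated BMDM also held many of these transcripts (Col1a1 at 18917 and Postn at 753 normalised counts in a table scaled separately), but Cilp was at 0.407 and Thbs4 at 4.66 there. Whether the collagen transcripts came from fibroblasts was not tested.

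Of the imprinted growth genes 7 of 9 past the limit were higher and 1 lower. H19, a non-coding RNA of embryonic and regenerating muscle, went from 7.97 to 1388 (77.8-fold), with its neighbour Igf2 at 1.06 and 84.5. Muscle genes with values over the limit included Des, desmin (1.06 to 123), and Mylpf, a myosin light chain (5.12 to 143). The T cell genes Cd8a (1.92 to 195) and Lck (1.06 to 115), the cytotoxic genes Il2rb (11.4 to 319), Nkg7 (2.60 to 119) and Gzmb (3.04 to 78.7), and the plasmacytoid dendritic cell genes Siglech (11.2 to 557) and Spib (11.4 to 534) were higher. In Ly6Clow cells at day 4 Cd8a was listed at 0, Il2rb was at 12.2 and Siglech at 16.3.

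A group of 9 Ugt1a genes, which encode enzymes that couple glucuronic acid to drugs and bilirubin, lies on chromosome 1 between 88055388 and 88220002 on GRCm38, and 8 of them were lower at day 4. The other one, Ugt1a7c, stayed under 2-fold (841 to 1485, 1.76-fold higher). Ugt1a10 was at 115 at day 2 and listed at 0 at day 4, and Ugt1a1 at 117 and 1.29. These genes share their last exons, and 7 of them lay between 115 (Ugt1a10) and 119 (Ugt1a6b) at day 2, so reads of the shared exons may have been counted for several of them and the 8 calls are not separate. Other genes with large ratios downward were Cgnl1 (811 to 63.4, 11.2-fold), a protein of cell junctions, Agpat9 (693 to 89.8, 7.05-fold), an enzyme of glycerolipid synthesis, and Plcb1 (401 to 49.8, 6.89-fold), a phospholipase C.

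Many of the same genes differed between the days in Ly6Clow cells, whose columns this comparison does not use. Of 11560 genes 934 (8.08%) were higher and 375 (3.24%) lower at day 4 in Ly6Clow cells. Both subsets had 546 genes higher, which is 48.6% of the Ly6Chigh and 58.5% of the Ly6Clow list, and 203 genes lower, 46.7% and 54.1% of the lists. Over 11129 genes past the limit in both, the log2 ratios had a Pearson correlation of 0.800 and a Spearman correlation of 0.752, given as a description since genes are not independent. The groups of a day may also have been sorted from the same muscles, which the labels do not say.

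Genes with large ratios in both subsets included the connective tissue genes Postn (168-fold in Ly6Chigh and 18.5-fold in Ly6Clow cells) and Bgn (54.3-fold and 17.003-fold). The list began with H19 and Cd4, the T cell co-receptor gene that some macrophages also express (29.4 to 917 in Ly6Chigh and 23.6 to 1223 in Ly6Clow cells). Cxcl9 (21.3-fold higher in Ly6Clow cells), Serpina3g, one of a family of closely similar protease inhibitor genes (17.2 to 552 in Ly6Chigh cells), Lag3 (17.7 to 532), the nuclease gene Dnase1l3 (4.30 to 246), Tlr12 and Ly6a, the Sca-1 antigen gene (287 to 4956), followed. Downward they were Arg1 (5246 to 299 in Ly6Clow cells), Ppbp (8.70-fold lower), Fn1 (9.73-fold), Cgnl1 (4.94-fold), Pdpn (4.42-fold), S100a4 (4.38-fold), Mmp8 (5.16-fold), Chi3l3 (4.90-fold) and Cd177 (4.24-fold). Cd177 and Mmp8 are also neutrophil genes, and the neutrophil list as a whole was lower at day 4 in both subsets.

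Other genes differed in size between the subsets, and this difference has no test. The class II list had a median log2 ratio of 2.30 over 12 genes in Ly6Chigh and 2.78 over 10 genes in Ly6Clow cells, and the log2 ratio of Ciita was 2.63 in Ly6Chigh and 5.55 in Ly6Clow cells, from 13.6 to 1091 in the latter. Collagen genes had larger ratios in Ly6Chigh cells, with log2 ratios of 5.60 and 2.29 for Col5a2 and 5.57 and 2.33 for Col6a3. Vcan had log2 ratios of -3.51 and -0.95, Egln3 -2.76 and -0.47, Ccl24 -1.29 and 0.86, and Cd163 -1.34 and 0.37. Igf1 was 4.66-fold higher in Ly6Chigh cells and under 2-fold in Ly6Clow cells (1785 and 2892), where it stood above the Ly6Chigh level on both days.

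**Figure D4:**
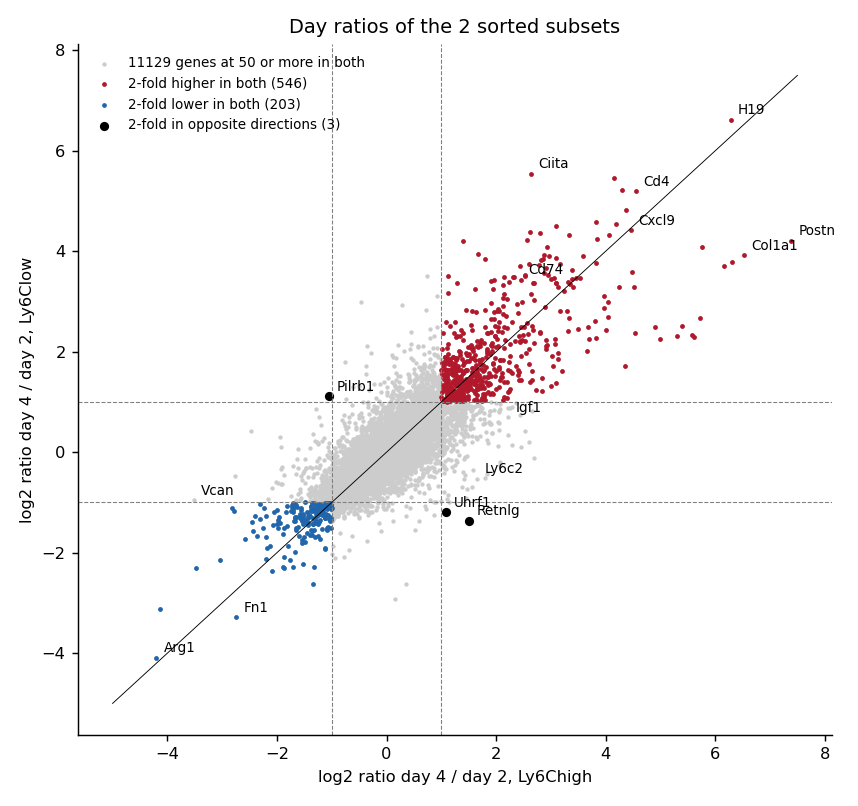
Log2 ratio of day 4 over day 2 in Ly6Chigh cells (x axis) and Ly6Clow cells (y axis) for 11129 genes at 50 or more in both, with the line of equality and dashed 2-fold lines. Red points are the 546 genes higher in both, blue the 203 lower in both and black the 3 of opposite direction. Postn and Col1a1 lie under the line of equality and Ciita above it.

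Against the other macrophage groups, 641 of the 1123 higher genes (57.1%) had their highest level in Ly6Chigh cells at day 4, and 452 (40.2%) in Ly6Clow cells at day 4. Of the 435 lower genes 297 (68.3%) were highest in Ly6Chigh cells at day 2 and 137 (31.5%) in Ly6Clow cells at day 2. Over all 11618 genes 22.2% were highest in Ly6Chigh cells at day 4 and 29.3% in Ly6Chigh cells at day 2, and the call itself fixes part of these shares. Among higher genes 144 (12.8%) were under 10 normalised counts in untreated BMDM, against 11 (2.53%) of the lower genes and 209 (1.80%) of all. Cxcl9 (1.88), Siglech (4.47), Cd8a (0.508) and Ciita (3.97) are examples. More of the higher than of the lower genes passed the level limit through 1 day alone. The limit and the call therefore fix part of this contrast too.

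**Figure D5:**
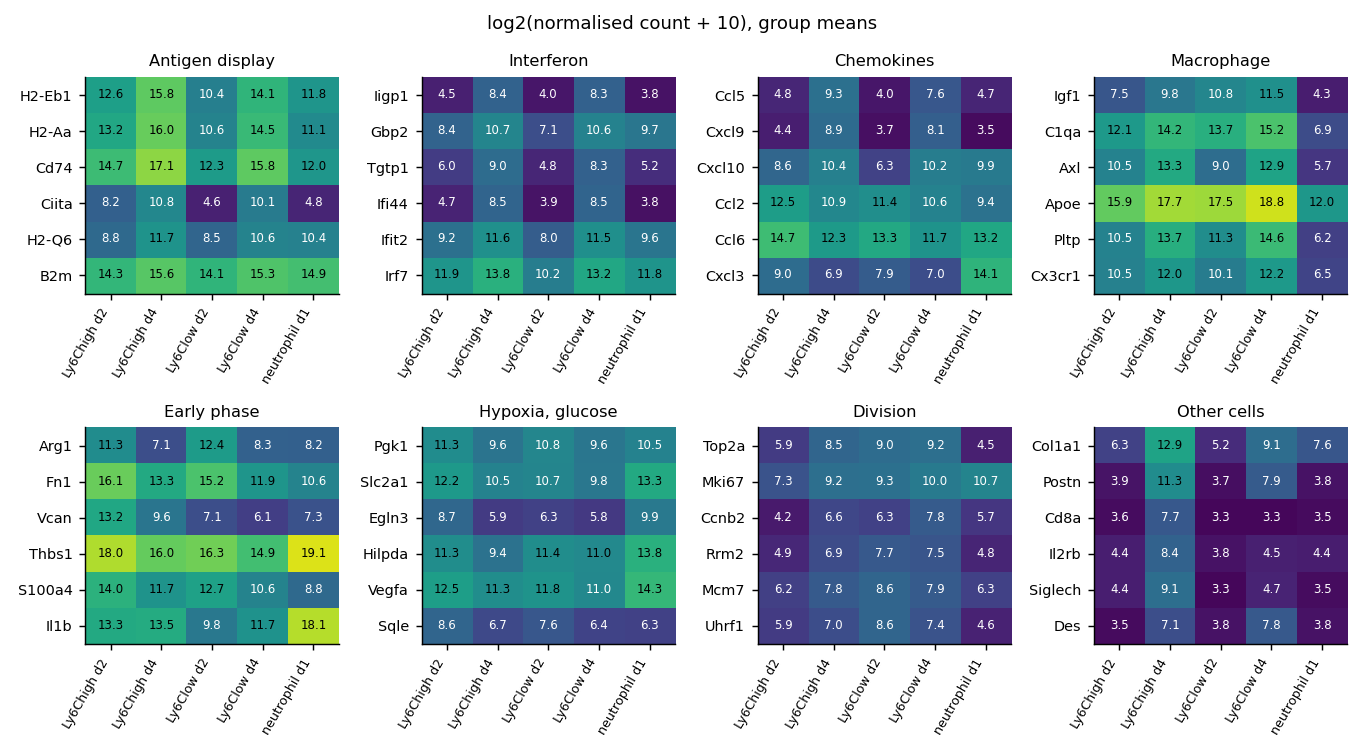
Group mean levels, as log2 of the normalised count plus 10, of 48 genes in the 5 muscle groups, in 8 panels by role, with 1 colour scale for all panels and the value printed in each cell. Antigen display and interferon genes are higher at day 4 than at day 2 in both macrophage subsets, genes of the early phase other than Il1b are lower, and Cd8a, Il2rb and Siglech stand out in Ly6Chigh cells at day 4.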

How the data were processed

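Poly-A RNA of sorted cells was sequenced with a kit that does not keep strand, so antisense and overlapping genes cannot be told apart. Reads were processed with TopHat2 2.0.7, DESeq and build mm10, per the submitters' processing notes, and which gene annotation was counted on the sources used here do not give. Both deposited tables hold log2 values of normalised read counts for 38087 genes. The muscle table gives the authors' mean of log2 values over each group's libraries, with values under 1 count set to 0. The BMDM table was normalised separately. Its levels are given on their own scale or classed by limits on it, and never as a ratio to the muscle columns. The deposited values carry no raw counts, so depth is unknown and no interval could be given. Log2 values were turned back into normalised counts (a value of 0 taken as count 0). An offset of 10, a level limit of 50 and a limit of 2-fold gave the calls, with Python 3.11.15, numpy 2.4.6, pandas 2.3.3 and matplotlib 3.10.9. The arithmetic alone was checked, on day 2 levels with known fold changes put in and no spread between samples. A cell that a spreadsheet had turned into a date was taken as missing. Gene coordinates are from GENCODE M21 on GRCm38. Named genes are the 15 largest ratios in each direction, up to 6 of each list, 10 from each comparison with Ly6Clow cells and 16 genes of interest, and further list members were named after their values were seen, while a few genes are not reported here. The members and lists were chosen with earlier results of these data known. The samples of Ly6Chigh cells at day 1 and of blood monocytes were not analysed here. Nothing says whether samples came from separate animals.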

Additional observations from a re-analysis of the deposited data

Results flagged for a closer look

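The direction of 3 genes differed between the subsets: each was at least 2-fold higher at day 4 in one and at least 2-fold lower in the other. The values are group means, so this difference was not tested. With an offset of 50 in place of 10, or a level limit of 200 in place of 50, 0 genes had opposite directions, so all 3 calls end there. Retnlg, a resistin-like gene of neutrophils, was at 22.5 and 82.6 normalised counts in Ly6Chigh cells and at 94.2 and 30.4 in Ly6Clow cells, a difference of 2.88 between the log2 ratios (1.51 and -1.37), with 2275 in neutrophils. Uhrf1, which keeps DNA methylation through replication, was at 50.8 and 119.7 in Ly6Chigh and at 365 and 154 in Ly6Clow cells, a difference of 2.29. Pilrb1, an activating receptor gene, was at 447 and 210.4 in Ly6Chigh and at 67.9 and 159 in Ly6Clow cells, a difference of -2.17.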

How the results depend on the processing

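No paired analysis was possible because each muscle column is a group mean, and for the same reason no sample could be left out. The 1123 higher genes became 727 with an offset of 50, 1871 with no limit on level and 515 with a limit of 200, so this count depends on genes with low levels. With a limit of 1.5-fold 2076 genes were higher and 1326 lower, and with 4-fold 396 and 46. Genes lower in both subsets numbered 117 with an offset of 50 and genes higher in both 307 with a limit of 200. The 3 genes of opposite direction became 5 with an offset of 1 and 0 with an offset of 50 or a limit of 200. The share of higher genes that are low in BMDM was 3.65% under 1 normalised count and 28.1% under 50. Of 54 list medians 13 moved by 0.5 or more with an offset of 50 and 7 with an offset of 1: those of the fibroblast, class II and GTPase lists were 2.73, 1.46 and 1.74 with 50 against 4.13, 2.30 and 2.28, and the fibroblast median was 5.31 with 1. The median log2 ratio of the CXC chemokine list was 1.79 and turned to -1.26 with a limit of 200, where the genes with low levels are left out. Of the called genes 72.1% were higher, and 77.2% with equal summed counts, which moved the median of all genes to 0.07. Of 246 named genes past 2-fold, 20 were under it with at least one offset or scaling, among them Il6, Pfkm, Inhba, Scd1, Kit and the 3 genes of opposite direction with an offset of 50, and Cebpb, Osm, Pilrb1 and Sc4mol with equal summed counts, and none changed direction.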

Other observations

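Most genes that differed 2-fold are in none of the 57 lists, 821 of the higher and 336 of the lower ones. The genes named here were picked after their values were seen, by size among genes outside the lists that were at 200 or more at day 2. The largest ratio upward was that of Ly6a, the stem cell antigen Sca-1 that interferons induce (287 to 4956, 16.7-fold higher), followed by Cd72, a surface lectin known from B cells (258 to 3761, 14.1-fold). The neighbouring membrane protein genes Tmem176a (349 to 2205) and Tmem176b (916 to 5478), which are known from dendritic cells, and Cyp27a1, which makes the LXR ligand 27-hydroxycholesterol (249 to 1341), were also higher. H2-Q5 (385 to 1711) belongs to the same near-identical class I genes as those above.

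After Cgnl1, Agpat9 and Plcb1, the largest ratio downward outside the lists was that of AL772299.1, a non-coding RNA (323 to 50.3, 5.53-fold lower). Nxpe5 (4.95-fold lower) and Nt5dc2 (4.93-fold lower) were among those that followed. Gja1, the gap junction gene connexin 43, was at 469.95 and 81.0 (5.27-fold lower), Sdc1, the heparan sulfate proteoglycan syndecan-1, at 1964 and 373 (5.15-fold lower), and S100a10, the partner of annexin A2, at 5796 and 1257 (4.58-fold lower). Slc39a14, a zinc and iron importer, was 4.70-fold lower (2465 to 517) and Papss2, which makes the sulfate donor for proteoglycans, 4.21-fold lower (818 to 187).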
